A study of Mus musculus with 16 samples.

Results

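The 10 genes described here, Otx1, Otx2, Emx1, Emx2, En1, En2, Zic1, Zic2, Zic4 and Zic5, give regions of the embryonic brain their identity. Their members in the data were the peaks of total Jarid2 and of Jarid2 dimethylated at its K116 lysine (Jarid2-K116me2) that overlapped a gene or lay within 5 kb of it in the GENCODE annotation of mm9 (NCBIM37). All 10 of the 22350 protein-coding genes searched had such peaks, 20 for Jarid2 out of 4992 listed and 27 for Jarid2-K116me2 out of 4502. No member lacked a peak of either antibody. The farthest peak taken in lay 4754 bp from Zic5 for Jarid2 (score 1011.13) and 4915 bp from Otx2 for Jarid2-K116me2 (score 991.11), and the nearest ones left out lay 5477 bp from Emx2 (score 250.96) and 5086 bp from En2 (score 2476.12).

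Jarid2 is a DNA-binding partner of the Polycomb Repressive Complex PRC2, which trimethylates lysine 27 of histone H3 (H3K27me3), a mark of repressed chromatin. PRC2 also methylates Jarid2 itself. In pluripotent cells, genes of developmental transcription factors are classical PRC2 targets, and the mark is removed from them or kept on them according to the lineage a cell enters. Otx1 and Otx2 are homeobox genes of the forebrain and midbrain, Emx1 and Emx2 of the developing cerebral cortex, and En1 and En2 of the boundary between midbrain and hindbrain. The Zic genes encode zinc finger proteins of the neural plate, dorsal neural tube and cerebellum, and they lie in pairs transcribed in opposite directions, Zic1 beside Zic4 and Zic2 beside Zic5.

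Jarid2 and Jarid2-K116me2 were mapped by ChIP-seq in E14, a line of mouse embryonic stem cells (ESC) grown with serum and LIF on gelatin, from 1 sample per antibody. H3K27me3 was mapped in 12 samples from 3 lines that all carry the Jarid2 -/- deletion: the deleted line itself (Jarid2 -/-), the same cells with a BAC carrying Jarid2 (WT rescue), and the same cells with a BAC carrying Jarid2 in which this lysine is replaced by alanine (K116A rescue). Each line was studied as ESC in serum with LIF and as embryoid bodies (EB), formed in hanging drops and left without LIF for 8 days, with 2 samples in each of the 6 groups, which the study describes as independent biological samples. Whether each rescued line was 1 clone is not given in the sources used here, a BAC brings Jarid2 back from an integrated copy rather than from its own locus, and the level of Jarid2 in the rescued lines, which the study examined by immunofluorescence and western blot, was not analysed here. The EB hold several cell types, so that fewer cells with the mark and less of the mark per cell cannot be told apart.

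The H3K27me3 samples differed in how much was called. The ESC samples held 1478 to 9836 peaks, and in each line the sample numbered 1 had the fewer. By the study's read counts after duplicates were removed, that sample had more reads than the other in WT rescue and Jarid2 -/-. In K116A rescue it had slightly fewer. The study's methods describe the samples numbered 2 as being of higher quality. The EB samples held 6811 to 14125 peaks, and both EB Jarid2 -/- samples (10164 and 14125) had more than any other EB sample. By the same read counts, both EB WT rescue samples had fewer reads than every H3K27me3 sample of the other groups. The scores used below are not normalised for depth. The part of read depth in the differences between lines was not tested. Of 10 genes active in pluripotent cells, 1 or 2 had an H3K27me3 peak in each ESC sample and 3 to 6 in each EB sample. Among 8 genes that every cell uses, no sample had a peak at more than 1.

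The sequence just before the annotated 5′ end is shown for 4 members on which the H3K27me3 results turn, each as 200 bases of NCBIM37 that lie in no annotated exon, read 5′ to 3′ on the strand of the gene, with every CG dinucleotide in capitals.
Otx2 (chr14:49287320-49287519, minus strand): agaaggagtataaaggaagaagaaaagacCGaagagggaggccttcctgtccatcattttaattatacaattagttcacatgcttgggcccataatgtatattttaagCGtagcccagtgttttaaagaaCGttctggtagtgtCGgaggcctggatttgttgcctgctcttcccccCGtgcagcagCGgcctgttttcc
En1 (chr1:122498795-122498994, plus strand): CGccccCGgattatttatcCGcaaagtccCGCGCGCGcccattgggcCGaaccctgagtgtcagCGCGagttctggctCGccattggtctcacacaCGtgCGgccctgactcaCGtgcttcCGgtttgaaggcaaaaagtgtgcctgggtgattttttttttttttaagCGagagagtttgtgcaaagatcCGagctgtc
Zic2 (chr14:122874404-122874603, plus strand): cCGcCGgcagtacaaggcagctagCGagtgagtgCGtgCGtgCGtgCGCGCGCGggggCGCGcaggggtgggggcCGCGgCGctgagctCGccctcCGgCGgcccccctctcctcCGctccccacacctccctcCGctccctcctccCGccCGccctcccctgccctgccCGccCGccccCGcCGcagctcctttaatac
Zic5 (chr14:122864900-122865099, minus strand): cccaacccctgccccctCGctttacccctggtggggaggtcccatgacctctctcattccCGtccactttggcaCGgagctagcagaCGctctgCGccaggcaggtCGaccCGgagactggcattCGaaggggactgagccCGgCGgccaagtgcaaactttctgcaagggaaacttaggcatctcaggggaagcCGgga
The stretch of Otx2 held 6 CG dinucleotides, that of Zic5 11, that of En1 17 and that of Zic2 26. Counted in the same way, a median of 7 was found over all 22350 protein-coding genes (quartiles 2 and 15) and a median of 16 over the 10 members. At least 10 were present in 7 of the 10 members (70%) and in 42.6% of all genes. Zic1 also held 26, the highest count among the members with Zic2, and Emx1 held 5, the lowest. Over whole peaks the members were not rich in CG. The median ratio of observed to expected CG was 0.50 over their 20 Jarid2 peaks and 0.57 over all Jarid2 peaks, and the median GC content was 49.9% and 56.3%. Among Jarid2 peaks wider than 5 kb the medians of the ratio lay closer, 0.51 over 10 member peaks and 0.53 over 457 peaks.

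Apart from Zic5, the members carried broad and strong Jarid2 peaks in ESC. A Jarid2 peak lay at all 10 members and at 18.1% of all protein-coding genes, and a Jarid2-K116me2 peak at all 10 members and at 16.0% of genes. The score of a peak is the log10 of its p-value multiplied by minus 10, which grows with the number of reads, and it piles up at 3100. A Jarid2 peak of at least 3100 was found at 8 members (3.61% of all genes) and a Jarid2-K116me2 peak of at least 3100 at 9 members (4.25% of all genes). A Jarid2 peak wider than 5 kb was found at 9 members (2.31% of all genes), and a Jarid2-K116me2 peak wider than 5 kb at 8 (1.53% of all genes). Zic1 and Zic4 overlap on opposite strands and Zic2 and Zic5 lie side by side, so that both pairs share peaks and the 10 genes are not 10 separate sites. With 1 sample per antibody these values have no replicate error.

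Both antibodies covered the annotated 5′ end of every member. From there the peaks reached far into the gene and upstream of it (see the map of listed peaks). At Emx2 (chr19:59533180-59539847) a single Jarid2 peak of 20412 bp covered the whole gene and 5 kb on each side. At Otx1 (chr11:21894767-21902900) a Jarid2 peak of 16955 bp covered 93.5% of that window, and at En1 (chr1:122498995-122505873) one of 13503 bp (chr1:122491256-122504758) ran from well upstream of the gene into its body. Emx1 (chr6:85137432-85154456), the member with the second longest gene, was covered over 36.7% of its window, all of it around the 5′ part. Zic5 (chr14:122856017-122864899) had the lowest scores, with no Jarid2 peak above 1329.74 and no Jarid2-K116me2 peak above 1231.28, and peaks over 36.2% and 24.5% of its window.

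Jarid2-K116me2 followed Jarid2 at these genes over shorter stretches. All 27 Jarid2-K116me2 peaks overlapped a Jarid2 peak, and of the 20 for Jarid2 the other antibody had a peak on 16. The 4 Jarid2 peaks without one were weak, with a score of 111.99 in Emx1, of 181.12 and 75.01 at and just beyond the 3′ end of Zic1, and of 62.44 in Zic4. Where overlapping peaks were merged, 16 of 20 member regions held both antibodies, 4 Jarid2 alone and 0 Jarid2-K116me2 alone. Genome-wide these were 3896, 1045 and 60 of 5001 regions, so the overlap was not particular to the members. In 7 of the 16 member regions (43.8%) a Jarid2 peak met several Jarid2-K116me2 peaks, against 9.24% of the 3896 regions genome-wide. These were the regions of Otx1, Otx2, Emx2, En2, Zic2, the stretch between Zic2 and Zic5, and the stretch downstream of Zic1. The member regions were also wider, with a median of 10473 bp against 2317 bp.

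A pair of Zic intervals showed the largest unequal signals. Downstream of Zic1, a Jarid2 peak of 5890 bp (chr9:91245040-91250929) had a score of 2904.07, and the strongest of its 3 Jarid2-K116me2 peaks 959.6. Between Zic5 and Zic2, a Jarid2 peak of 3808 bp (chr14:122869798-122873605) had a score of 1329.74, and the strongest Jarid2-K116me2 peak in it 439.05. Both ratios were -1.60 on the log2 scale. The 5′ end of Zic5 went the other way, with 776.28 for Jarid2 and 1231.28 for Jarid2-K116me2 (0.67 on the log2 scale). Of the 7 regions with both scores under 3100, Jarid2-K116me2 was the higher in 3, against 1587 of 2992 such regions genome-wide. The scores are not normalised for depth.

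Other patterning genes of the embryo resembled the members. Of 42 such genes, 38 had a Jarid2 peak and 38 a Jarid2-K116me2 peak, and 32 and 34 had one of at least 3100. Only 2 of 10 pluripotency genes and 0 of 8 genes used by every cell had a Jarid2 peak.

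The question of the H3K27me3 samples is whether the mark at these genes depends on Jarid2 and on this lysine. For each sample, the scores of the broad H3K27me3 peaks were averaged over every base of the gene and 5 kb on each side, with 0 where no peak was listed, which is called the mean score below. Groups were compared on log2(mean score + 10) in limma, with Benjamini-Hochberg adjustment over 8069 protein-coding genes. A base outside the listed peaks can still carry the mark below the threshold of the peak caller.

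In ESC, H3K27me3 lay on the same genes as Jarid2. In the sample numbered 2 of each line all 10 members had a peak, and in the sample numbered 1 it was 7, 9 and 10 members in the WT rescue, Jarid2 -/- and K116A rescue lines. Of all genes, 22.1%, 28.4% and 23.6% had a peak in the samples numbered 2, in the same order of lines. In the samples numbered 1 it was 3.86%, 11.8% and 14.1% of genes. The median member was covered over 74.6%, 83.1% and 86.0% of its window in the samples numbered 2, and over 5.50%, 27.8% and 51.1% in the samples numbered 1. Thus in WT rescue and in Jarid2 -/- the samples of 1 line differed more than the lines did among samples of the same number. The K116A rescue samples differed less than the lines did among the samples numbered 1. Across ESC and EB, 5 members (Otx1, En2, Zic1, Zic2 and Zic4) had a peak in each of the 12 samples, as 3.47% of all genes did.

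The mark did not lie evenly over the members. The 5′ end of Otx1 was inside a peak in 11 samples, that of Zic4 in 10, and those of Emx1, En1 and En2 in 9. The 5′ ends of Zic2 and Zic5, whose sequences are shown above, were inside a peak in 0 of 12 samples, although both genes carried peaks nearby in 12 and 10 samples. At Zic2 (chr14:122874604-122879074) the widest peak of the 3 ESC samples numbered 2 began inside the gene, at positions 122874940 to 122875091, and ran downstream over 17481 to 17929 bp.

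No member passed the test between the lines in ESC. The limma test called 0 members and 0% of all genes in Jarid2 -/- against WT rescue and 0 members and 0% of genes in K116A rescue against WT rescue, where 16 and 27 genes had an unadjusted p under 0.05. Emx2 was among them in both. Its mean score in ESC was 0 and 7.89 in WT rescue, 7.60 and 70.5 in Jarid2 -/-, and 26.3 and 59.7 in K116A rescue. Both K116A rescue samples lay above both WT rescue samples, as in 2.88% of all genes, with Emx2 the only member. The log2 difference was 1.91 (SE 0.65, limma unadjusted p = 0.0138, adjusted p = 1). Differences between ESC samples 2 and 1 correlated at 0.83 to 0.84 among the lines. The main fit did not model this, so the lines were tested against a spread that includes it. With the replicate number as a block, 152 and 76 genes had an unadjusted limma p under 0.05, and 0 were called.

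In EB, the positions of the members relative to WT rescue were counted on the mean score, which the plot of windows inside H3K27me3 peaks shows as percent covered. In EB Jarid2 -/-, 4 members had both samples below both WT rescue samples, Otx2, En1, Zic2 and Zic5, where 4.11% of all genes did. Another 4, Otx1, Emx1, Zic1 and Zic4, had both samples above, as did 60.5% of all genes. In EB K116A rescue, 2 members lay below WT rescue in both samples, Otx2 and Zic5 (6.41% of genes), and 7 lay above, Otx1, Emx1, Emx2, En1, En2, Zic1 and Zic4 (38.5% of genes). Emx2 and En2 overlapped WT rescue in Jarid2 -/-, and Zic2 did in K116A rescue. These counts carry no test. They were not adjusted for the number of reads, which was lowest in EB WT rescue.

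**Figure D1:**
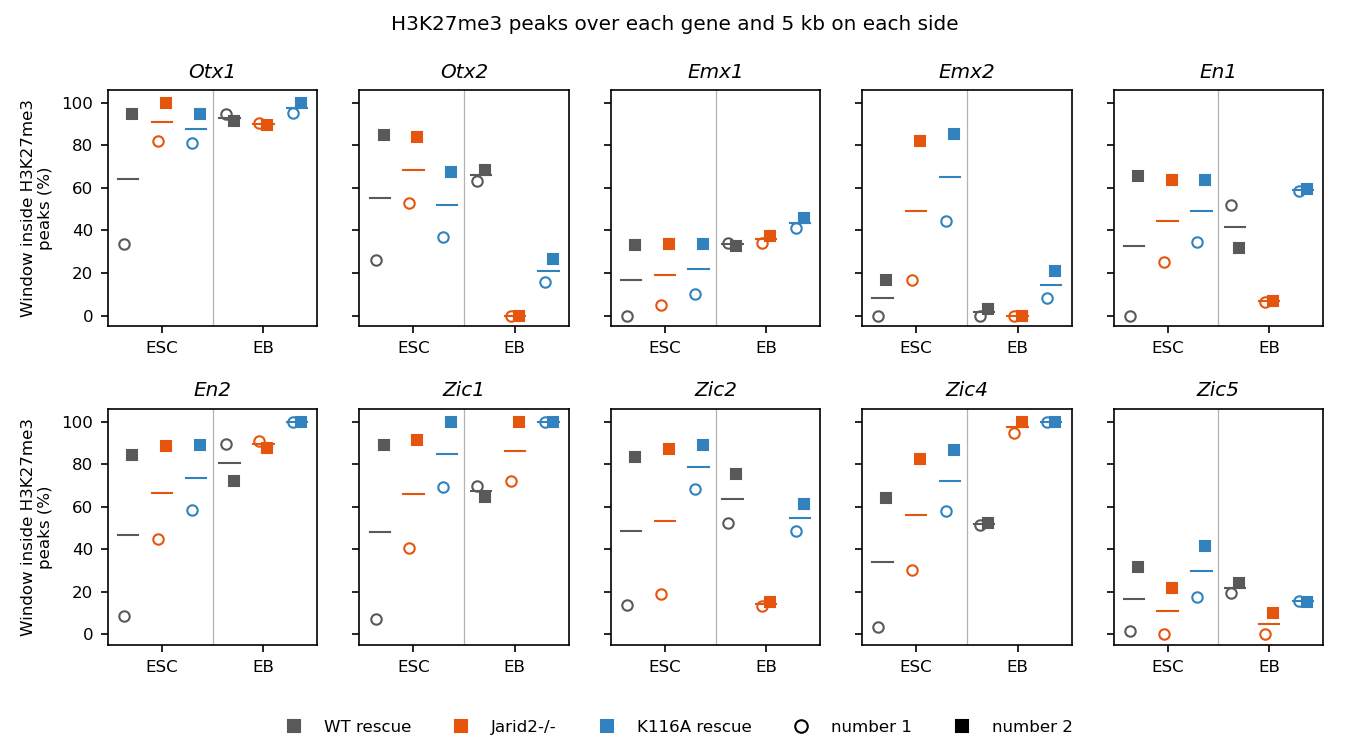
Percent of the gene and 5 kb on each side that lay inside listed H3K27me3 peaks, for each of the 10 genes in ESC (left of the grey line) and EB (right) of the WT rescue (grey), Jarid2 -/- (orange) and K116A rescue (blue) lines, with 1 symbol per sample and a line at the mean of the 2 samples. Otx2 falls to 0% in both EB Jarid2 -/- samples, while Zic4 reaches 94.6% to 100% in the EB of both mutant lines and 51.2% and 52.3% in EB WT rescue.

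Otx2 lost its H3K27me3 peaks in EB without Jarid2. Its mean score was 49.3 and 49.1 in EB WT rescue, 0 and 0 in EB Jarid2 -/-, and 8.23 and 20.2 in EB K116A rescue. In ESC it was 14.9 and 95.7 in WT rescue, 33.7 and 84.7 in Jarid2 -/-, and 18.9 and 51.1 in K116A rescue. In EB both Jarid2 -/- samples and both K116A rescue samples thus lay below both WT rescue samples (4.11% and 6.41% of all genes). The 3 groups of ESC overlapped at Otx2.

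In EB, Otx2 was lower in Jarid2 -/- than in WT rescue, with a log2 difference of -2.57 (SE 0.76, limma adjusted p = 0.0362), and it was the only member called where 20.9% of all genes were. It also fell from ESC to EB within Jarid2 -/-, a log2 difference of -2.69 (SE 0.76, limma adjusted p = 0.0249), as the only member called where 26.3% of genes were. Of the genes called, 1664 of 1685 and 2105 of 2125 were higher in EB Jarid2 -/-, so Otx2 was 1 of 21 and 1 of 20 that were lower. Centring each sample on its median over the genes with a peak in all 12 samples moved the median difference of all genes in EB from 0.23 to -0.37. It turned the share of called genes that were higher in EB Jarid2 -/- from 98.8% to 56.2% against WT rescue and from 99.1% to 60% against ESC, and Otx2 was still called in both. A fold against samples without a listed peak depends on the 10 added to the score, and both calls of Otx2 were lost when genes without peaks were also tested (limma adjusted p = 0.196 in EB and 0.145 from ESC to EB), as was that in EB for the percent covered (adjusted p = 0.0515). With 1 sample left out, the call in EB was lost without any of the 6 EB samples or ESC K116A rescue sample 2 (adjusted p 0.0507 to 0.195), and that from ESC to EB without ESC Jarid2 -/- sample 2 or either EB Jarid2 -/- sample (0.0943 to 0.151), while every difference stayed at or below -2.13.

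Of the 9 members with a peak in both EB WT rescue samples, Otx2 alone had none in both EB Jarid2 -/- samples, and over all genes this was so for 120 of 3909 (3.07%). This count was chosen after the values were seen. In EB K116A rescue the peak that was left at Otx2 (chr14:49277354-49287319) lay upstream of the gene in 1 sample (chr14:49289203-49293174) and reached just over its 5′ end in the other (chr14:49286995-49293228), whereas the EB WT rescue peaks of 13550 and 15463 bp reached far into the gene body. The difference of K116A rescue from WT rescue in EB was -1.34 (SE 0.76, limma adjusted p = 0.633), which did not pass. Of 10 other settings it passed in 1, median centring (limma adjusted p = 5.0e-10). Centring with each gene's own spread called 0 members in this contrast.

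**Figure D2:**
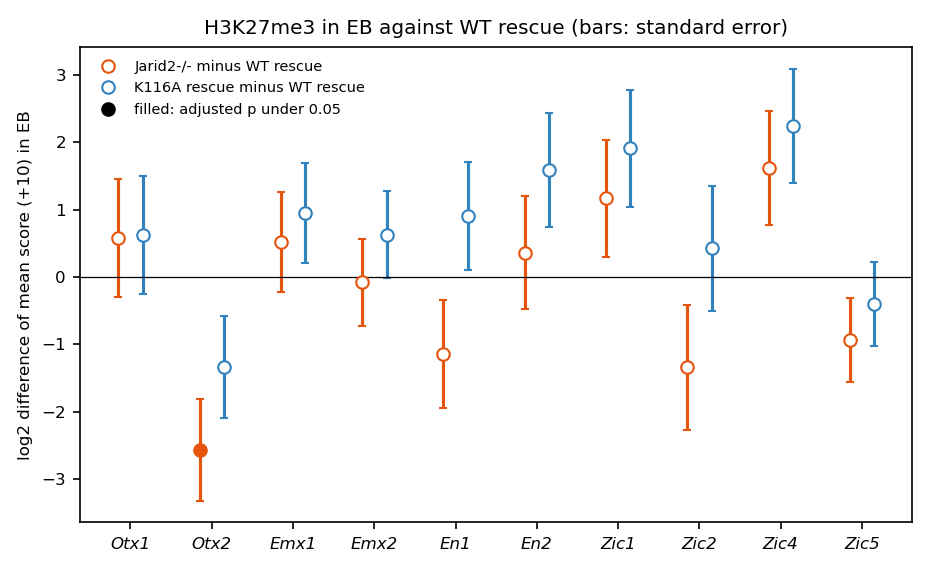
Difference of H3K27me3 in EB from WT rescue on the scale of log2(mean score + 10) for each gene in Jarid2 -/- (orange) and K116A rescue (blue), with bars of 1 standard error from limma and a filled symbol for an adjusted p under 0.05. Otx2 in Jarid2 -/- at -2.57 is the only filled symbol, and Zic4 in K116A rescue at 2.25 is the highest.

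En1, Zic2 and Zic5 had lower values in EB Jarid2 -/- without passing the test. The mean score of En1 was 27.04 and 13.7 in EB WT rescue and 2.76 and 4.0 in EB Jarid2 -/-. It was highest in EB K116A rescue, at 38.8 and 52.9. What was left in EB Jarid2 -/- was a single peak of 1037 and 1192 bp inside the gene, against peaks of 8769 and 5338 bp over the 5′ end in EB WT rescue. The difference was -1.15 (SE 0.80, limma adjusted p = 0.377).

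Zic2 had mean scores of 34.99 and 57.9 in EB WT rescue, 10.4 and 13.3 in EB Jarid2 -/-, and 47.3 and 86.4 in EB K116A rescue. In EB Jarid2 -/- the only peak lay downstream of the gene, at chr14:122882120-122891739 and chr14:122881872-122892217, with widths of 9620 and 10346 bp, against widest peaks of 10050 and 15405 bp in EB WT rescue. The difference was -1.34 (SE 0.93, limma adjusted p = 0.372).

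Zic5 had low mean scores in the EB of every line, of 11.6 and 13.2 in EB WT rescue, 0 and 3.65 in EB Jarid2 -/-, and 6.41 and 7.61 in EB K116A rescue. Its difference in EB Jarid2 -/- was -0.94 (SE 0.63, limma adjusted p = 0.352). EB WT rescue was the highest of the 3 EB groups.

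Zic1 and Zic4 had higher values in the EB of both mutant lines, and En2 in those of K116A rescue, again without passing the test. Zic4 had mean scores of 35.4 and 28.9 in EB WT rescue, 99.7 and 142 in EB Jarid2 -/-, and 175 and 206 in EB K116A rescue. The difference from WT rescue was 1.62 in Jarid2 -/- (SE 0.85, limma adjusted p = 0.226) and 2.25 in K116A rescue (SE 0.85, limma adjusted p = 0.374, unadjusted p = 0.0239). Zic1, which overlaps Zic4, had 48.7 and 37.9 in EB WT rescue, 83.8 and 142 in EB Jarid2 -/-, and 175 and 206 in EB K116A rescue, a difference of 1.91 in K116A rescue (SE 0.87, limma adjusted p = 0.517).

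These values came with wider peaks (see the plot of the widest peak). At Zic1 and Zic4 the widest peak measured 8443 and 7909 bp in EB WT rescue, 27157 and 69224 bp in EB Jarid2 -/-, and 74296 and 75178 bp in EB K116A rescue, where 1 peak spanned both genes (chr9:91237155-91311450 and chr9:91236945-91312122). En2 (chr5:28492236-28500152) had mean scores of 67.8 and 45.7 in EB WT rescue, 66.0 and 84.4 in EB Jarid2 -/-, and 160 and 222 in EB K116A rescue. Its widest peak measured 15372 and 6463 bp, 13693 and 14109 bp, and 29640 and 32618 bp in the same order. Only the K116A rescue samples of En2 stood apart, by 1.59 on the log2 scale (SE 0.84, limma adjusted p = 0.596). Other values of these samples were also higher in EB K116A rescue than in EB WT rescue, with 23.2 and 37.2 Mb inside peaks against 19.6 and 22.5 Mb, and a median log2 value over the genes with a peak in all 12 samples of 4.99 and 5.50 against 4.63 and 4.65. The numbers of peaks overlapped, at 6811 and 9866 against 6852 and 8446. The part of these values in the difference at En2 was not tested.

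**Figure D3:**
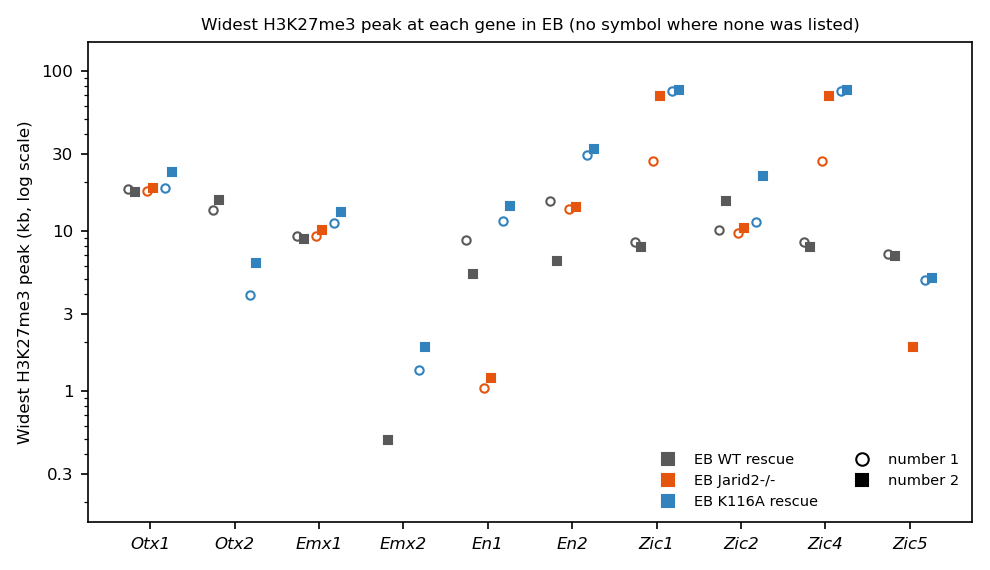
Width in kb, on a log axis, of the widest H3K27me3 peak at each gene in EB of the WT rescue (grey), Jarid2 -/- (orange) and K116A rescue (blue) lines, with 1 symbol per sample and none where no peak was listed. At Zic1 and Zic4 the K116A rescue samples reach 74296 and 75178 bp, and at Otx2 no peak was listed in Jarid2 -/-.

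Otx1 and Emx1 kept their peaks in EB of every line. Otx1 was covered over 89.5% to 100% of its window in the 6 EB samples and Emx1 over 32.8% to 45.7%. The mean score of Emx1 was 24.3 and 20.2 in EB WT rescue, 27.5 and 46.5 in EB Jarid2 -/-, and 42.0 and 64.8 in EB K116A rescue. The difference of Emx1 in Jarid2 -/- was 0.52 (SE 0.74, limma adjusted p = 0.729), and it turned to -0.083 when the samples were centred on their medians.

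Emx2 had little H3K27me3 in EB. No peak was listed in 1 EB WT rescue sample and in both EB Jarid2 -/- samples, and the other EB samples were covered over 2.95% (WT rescue), 8.12% and 21.0% (K116A rescue). Within Jarid2 -/- its mean score went from 7.60 and 70.5 in ESC to 0 and 0 in EB. The difference was -1.91 (SE 0.65, limma adjusted p = 0.0516) and missed the threshold. With 1 sample left out the difference lay between -3.01 and -0.82. Within K116A rescue it went from 26.3 and 59.7 to 3.86 and 9.25, a difference of -1.62 (SE 0.65, limma adjusted p = 0.294).

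From ESC to EB, 0 members were called within WT rescue (0% of all genes, with 217 genes at an unadjusted p under 0.05) and 0 within K116A rescue (1.47% of genes). In EB, 0 members were called between K116A rescue and WT rescue (0.991% of genes). The change from ESC to EB was also compared between lines. For Jarid2 -/- against WT rescue, 0 members were called (4.03% of genes), and Otx2 came closest at -2.89 (SE 1.07, limma unadjusted p = 0.0217, adjusted p = 0.169). For K116A rescue against WT rescue, 0 members and 0% of genes were called, with 296 genes at an unadjusted p under 0.05. The call of Otx2 in this difference between Jarid2 -/- and WT rescue depended on the setting. It was made with the replicate number as a block (limma adjusted p = 0.0485), for the highest score (0.00988), with a pseudocount of 1 (0.0480) and after median centring (5.23e-11). It was not made after centring with each gene's own spread (0.287), around the 5′ end (0.127), for the percent covered (0.163), without the filter (0.651), without the 3 ESC samples of number 1 (0.0951) or with any 1 sample left out (0.119 to 0.375).

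The other patterning genes gave 3 calls of 40 tested from ESC to EB in Jarid2 -/-. Fgf8, a signal of the boundary between midbrain and hindbrain, fell by 2.78 (SE 0.73, limma adjusted p = 0.0183), with mean scores of 44.8 and 140 in ESC and of 2.95 and 3.47 in EB. Gbx2, a homeobox gene of the hindbrain side of that boundary, rose by 2.56 (SE 0.65, limma adjusted p = 0.0156), from 10.5 and 25.9 to 132 and 169. Gbx2 was higher in the EB of the other lines too, with 1.71 and 18.8 in ESC and 94.1 and 67.7 in EB of WT rescue (2.29, limma unadjusted p = 0.00515, adjusted p = 1), and 16.8 and 24.1 in ESC and 147 and 193 in EB of K116A rescue (2.57, unadjusted p = 0.00254, adjusted p = 0.0956). Fgf17 rose from 0 in both ESC samples to 5.29 and 10.6 (0.83, SE 0.18, limma adjusted p = 0.00692). The change from ESC to EB was not called as different between Jarid2 -/- and WT rescue for Gbx2 (0.27, SE 0.92, limma adjusted p = 0.975), Fgf8 (adjusted p = 0.315) or Fgf17 (adjusted p = 0.0905). In EB Jarid2 -/- against WT rescue, which shares the EB Jarid2 -/- samples, 2 of 40 were called. Hesx1, a homeobox gene of the anterior forebrain, fell by 0.88 (SE 0.22, limma adjusted p = 0.0193) from 10.3 and 6.66 to 0 and 0, and Fgf17 was again higher by 0.83 (SE 0.18, limma adjusted p = 0.00871). Each of these calls was lost without at least 1 sample: from ESC to EB, Fgf8 without ESC Jarid2 -/- sample 2 or either EB Jarid2 -/- sample, Gbx2 without ESC Jarid2 -/- sample 1 and Fgf17 without EB Jarid2 -/- sample 2 (adjusted p 0.0641 to 0.0963). Between the lines in EB, Hesx1 lost it without EB WT rescue sample 1 or either EB Jarid2 -/- sample, and Fgf17 without either EB WT rescue sample or EB Jarid2 -/- sample 2 (0.0607 to 0.138). The median difference of the 40 genes in EB Jarid2 -/- against WT rescue was 0.49, that of the 10 members 0.14 and that of all genes 0.23.

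Across the 12 samples the members did not all move alike. The correlation of each member with the mean of the other 9 was lowest for Otx2 (r = 0.21) and Emx2 (r = 0.42). For the rest it lay between 0.62 (Zic5) and 0.84 (En1). This is a description over samples that differ in sequencing depth and in the number of peaks called. The genes outside the members whose values were most like the members' mean were Wnt11 (r = 0.98), Fbxo2 and Fbxo44 (r = 0.97 each), Msx1 (r = 0.96) and Peg12 (r = 0.95).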

How the data were processed

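The series holds 16 samples, of which 2 are inputs without a peak list. The authors mapped single reads (100 bp) with Bowtie2 2.1.0 on the mm9 build, removed duplicates, and called peaks per sample against input with MACS 1.4.2 (Jarid2, Jarid2-K116me2) and MACS2 2.0.10 in broad mode (H3K27me3), per the labels and the study's methods. The deposited value of each peak is a score, not normalised for depth. The statistic behind the H3K27me3 score is not given in the sources used here, and the test planned on fold enrichment was run on this score. Reads per peak are not known, so no counting error could be given.

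Peaks were assigned to genes within 5 kb and overlaps needed 1 bp. H3K27me3 groups were compared in limma 3.58.1 (R 4.3.3; 6 groups, trended and robust spread) on log2(mean score + 10) over genes with a peak in at least 2 samples, at an adjusted p under 0.05. The tests were checked on simulated data. Named were the 10 members, up to 3 other patterning genes called per contrast, and the 5 genes most like the members. Members and lists were chosen with earlier results of these data known. Alternatives were other distances, scores, windows, pseudocounts, centring, a replicate block and samples left out.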

Additional observations from a re-analysis of the deposited data

How the results depend on the processing

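All 10 members kept a peak of both antibodies at 0 kb, 10 kb and a score of at least 200. With 50% of each peak required to overlap, 11 of 20 Jarid2 and 10 of 27 Jarid2-K116me2 peaks were shared. Members with an H3K27me3 peak in every sample were 3 at 0 kb, and 5 to 7 with 1 sample left out. A minimum fold could not be run, as the files give none.

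Members called in EB Jarid2 -/- against WT rescue were 5 after median centring (Zic4 higher; Otx2, En1, Zic2 and Zic5 lower), 0 without the filter and 0 for percent covered, and 0 to 1 with 1 sample left out. After centring, limma pooled the spread of most genes into 1 curve. With each gene's own spread, chosen after seeing the data like the pseudocount of 1, the percent covered and the fit without the ESC samples of number 1, Otx2 was the 1 member called there among 8 genes. A group left with 1 sample was assumed to vary like the others. From ESC to EB in Jarid2 -/- the members called were 6 after centring, 2 with each gene's own spread, around the 5′ end or with a pseudocount of 1, 0 without the filter, 3 without the 3 ESC samples of number 1, and 0 to 2 with 1 sample left out (0 without ESC Jarid2 -/- sample 2 or either EB Jarid2 -/- sample). In K116A rescue they were 6 after centring (2 with each gene's own spread), and 2 for the highest score or without the ESC samples of number 1. In EB K116A rescue against WT rescue they were 5 after centring (En2, Zic1 and Zic4 higher, Otx2 and Zic5 lower) and 0 with each gene's own spread. For the highest score they were 2 (Zic1 and Zic4). Over all 8069 genes centring and the highest score called 246 and 226 in that contrast, and each gene's own spread 6. Centring called 210 genes in EB Jarid2 -/- against WT rescue, 640 from ESC to EB in Jarid2 -/- and 454 in K116A rescue. Each gene's own spread called 159 and 134 genes from ESC to EB in these 2 lines. For K116A rescue the highest score called 353 there. In EB Jarid2 -/- against WT rescue, percent covered called 1592 genes and the fit without the filter 726 of 22350. The change between lines gave 4 (Jarid2 -/-) and 1 (K116A rescue) after centring, and 1 for Jarid2 -/- with the highest score, a pseudocount of 1 or without the ESC samples of number 1. In ESC, Emx2 was the 1 member called in K116A rescue after centring, and the 1 called in either line without the samples of number 1; with 1 sample left out the ESC Jarid2 -/- count was 0 to 1. En1 in EB Jarid2 -/- turned to 0.074 for the highest score, and Emx1 to -0.083 after centring with either spread. Of the other patterning genes, centring ended the calls of Fgf17 (0.34 from ESC to EB, 0.23 in EB) and Hesx1 (-1.48), and the highest score those of Fgf8 (-1.55), Gbx2 (0.90) and Hesx1 (-2.71). The causes were not tested.

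With the replicate number as a block, 2 members were called from ESC to EB in Jarid2 -/- (Otx2 and Emx2) and 1 in its difference from WT rescue (Otx2). The numbers were not taken to pair the samples in the main fit, since the study's methods name no such pairing. The differences between samples 2 and 1 correlated over 0.1 in 10 of 15 pairs of groups. They correlated at 0.83 to 0.84 among ESC groups, at 0.24 to 0.33 between ESC groups and EB Jarid2 -/-, at 0.48 to 0.52 between ESC groups and EB K116A rescue, at 0.43 between EB Jarid2 -/- and EB K116A rescue, and at -0.04 to 0.04 between EB WT rescue and the others. All genes called rose to 3010, 653, 2577, 206 and 710 in the contrasts with 2125, 119, 1685, 80 and 325.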
